A study of Mus musculus with 2 samples.

Results

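The collagen genes of the mouse were examined in total RNA from the left cerebral cortex. A gene was counted as a collagen gene where its symbol was Col, a number, the letter a and a number, and where at least 1 of its transcripts was annotated as protein-coding. This gave 44 genes of 27 collagen types among 55536 annotated genes. The 2 libraries form 1 group: male mice of the strain B6CASTF1/J, an F1 hybrid of C57BL/6J and CAST/EiJ, at an age of 14 days, each library made from 300 ng of RNA, with no treatment or altered allele named. The labels call them biological replicates 1 and 2 and give each its own biosample, yet both carry the same donor entry and the note "3x Males", and pooling of tissue is not stated. So the spread between the libraries may be technical. With 1 group and 2 libraries there is no comparison of conditions and no p-value, and every SD below is over n = 2.

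Collagens are secreted or membrane proteins in which 3 chains wind into a triple helix of glycine-rich repeats. Type IV collagen builds the sheet-like network of basement membranes, which in brain lie around blood vessels and under the pia, whereas fibrillar collagens build the fibres of the meninges and of the walls of larger vessels. Other members attach to fibrils, form beaded filaments or stay in the plasma membrane of cells, some of them neurons. The chains are modified and folded in the endoplasmic reticulum before they are secreted.

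The labelled tissue was checked by genes of cortical excitatory neurons, and none was absent. The vesicular glutamate transporter Slc17a7 stood at 684 TPM in replicate 1 and 741 in replicate 2, and the transcription factors Tbr1 and Neurod6 stood between 20.1 and 50.3 TPM. TPM, the deposited length-scaled measure, scales reads by the length of a gene and by the total of the library, so it can be compared between genes. Depth was 28377847 expected counts (estimated reads per gene) in replicate 1 and 30982776 in replicate 2. Collagen genes took 28738 of these, or 0.101% (95% Wilson interval 0.1001 to 0.1024%), in replicate 1 and 30531, or 0.0985% (0.0974 to 0.0997%), in replicate 2. These intervals cover counting error only. No collagen gene was at or under the limit of 3 counts that a count of 0 allows, and the lowest count was 9.

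Genes for type IV chains lie in head-to-head pairs in the genome, and the sequences between or across their starts are shown because these pairs hold the most abundant collagen genes of the tissue and because the levels of their partners are compared below. On mm10 (GRCm38.p6) Col4a2 begins at base 11312805 of chromosome 8 on the plus strand and Col4a1 begins at base 11312826 on the minus strand, so the genes share 22 bases. Between Col4a4 and Col4a3 on chromosome 1 lie 71 bases, and between Col4a6 and Col4a5 on the X chromosome lie 1308 bases, of which the 100 nearest to each gene are given. All are taken from RefSeq promoter windows, are written 5′ to 3′ on the plus strand, and carry in capitals each match to the GC box, GGGCGG.
Col4a1 and Col4a2, chr8:11312805-11312826: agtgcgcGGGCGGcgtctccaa
Col4a4 and Col4a3, chr1:82586850-82586920: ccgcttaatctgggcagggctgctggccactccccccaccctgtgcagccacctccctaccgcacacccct
Col4a6 side, chrX:141474077-141474176: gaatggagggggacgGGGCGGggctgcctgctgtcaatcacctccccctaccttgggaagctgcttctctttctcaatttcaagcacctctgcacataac
Col4a5 side, chrX:141475285-141475384: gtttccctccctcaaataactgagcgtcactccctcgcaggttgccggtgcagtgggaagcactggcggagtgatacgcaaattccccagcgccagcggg

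The stretch shared by Col4a1 and Col4a2 and the Col4a6 side each hold 1 such match, and the other stretches hold none. Base composition is 72.7% G or C in the Col4a1 and Col4a2 stretch and 69.0% between Col4a4 and Col4a3. Promoter windows of 300 bases (250 before to 50 after a start) were found in RefSeq for 35 of the 44 genes. None was found for Col1a1, Col2a1, Col4a3, Col5a2, Col9a3, Col12a1, Col14a1, Col22a1 and Col26a1. On both strands together, GGGCGG was in the windows of 22 of these 35 genes (62.9%), against 35.7% of 32851 windows of all genes. CCAAT was in 12 (34.3%) against 37.4%, and TATAAA in 5 (14.3%) against 13.6%. The median G or C content was 60.0% for collagen windows and 52.7% for all windows. For collagen genes 1 window per gene was taken. The comparison used every window, with no limit to 1 per gene or to protein-coding genes, so the sets are not alike. Whether any factor binds these letters was not measured.

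A TPM of at least 1 in each library was found for 30 of the 44 collagen genes (68.2%) and for 12944 of 22028 protein-coding genes (58.8%). A further 4 reached it in 1 library and 10 in neither. Summed over all members the collagen TPM was 319 in replicate 1 and 313 in replicate 2 (316 ± 4.17, mean ± SD). The sum was uneven: Col4a1 and Col4a2 together made up 27.1 and 28.6% of it and the 10 highest genes 73.7 and 71.7%. Ordered by mean TPM, 14 of the 43 pairs of neighbouring genes were separated, in that both libraries of 1 gene lay above both of the next, and the other 29 were not. The deposited tables also give each TPM lower and upper bounds of an unstated level, and by these Col4a1 and Col4a2 were the 2 genes clear of the next in both libraries. In bulk tissue, fewer cells of a type and less RNA per cell cannot be told apart.

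**Figure D1:**
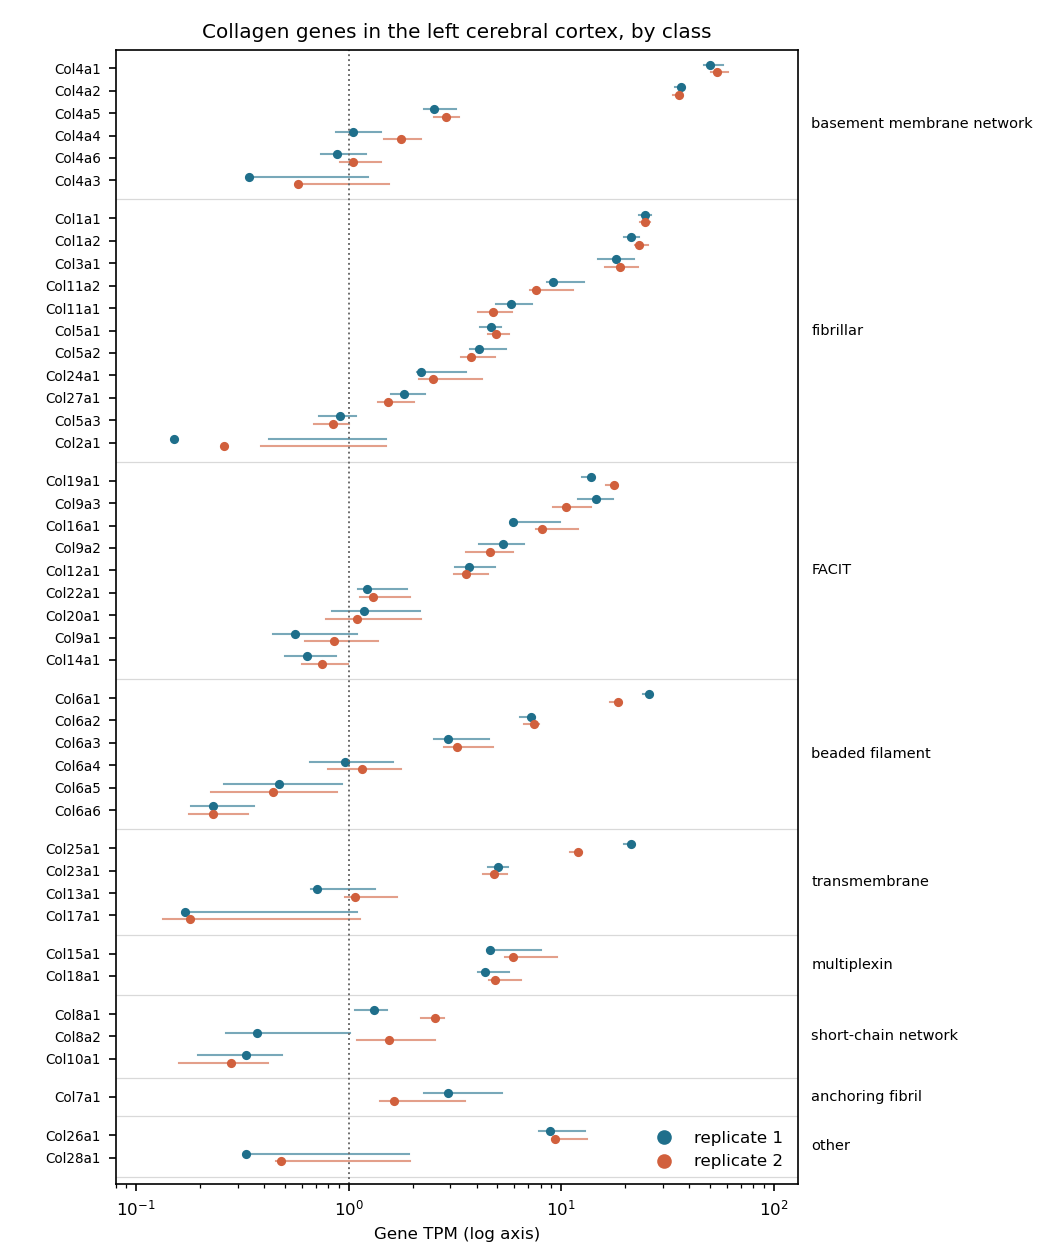
TPM of all 44 collagen genes (horizontal log axis) by class, with replicate 1 in blue and replicate 2 in orange, the bounds deposited with each TPM as thin lines of unstated level, and TPM 1 as a dotted line. Col4a1 and Col4a2 stand at the top, 10 genes lie left of the dotted line in both libraries, and for 5 genes a TPM lies outside its own bounds.

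Type IV genes and fibrillar genes carried most of the collagen RNA. The 6 type IV genes summed to 91.4 and 95.9 TPM, or 29.6 ± 1.39% of the collagen sum. The 11 fibrillar genes summed to 92.9 and 93.2 TPM, or 29.4 ± 0.453%. By TPM the libraries' shares for these 2 classes overlapped. By counts not divided by length they did not, with 33.7 and 35.2% for type IV and 32.2 and 33.2% for fibrillar genes. The 9 genes of the FACIT class (fibril-associated collagens with interrupted triple helices and their relatives) had 15.1 ± 0.599%, the 6 beaded-filament genes of type VI had 10.9 ± 1.38%, and the 4 transmembrane collagens had 7.17 ± 1.96%. The smallest shares were those of the multiplexins (3.12 ± 0.448%), of Col26a1 and Col28a1 grouped as other (2.99 ± 0.183%), of the short-chain network collagens (1.01 ± 0.543%) and of the anchoring-fibril gene Col7a1 (0.719 ± 0.281%).

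**Figure D2:**
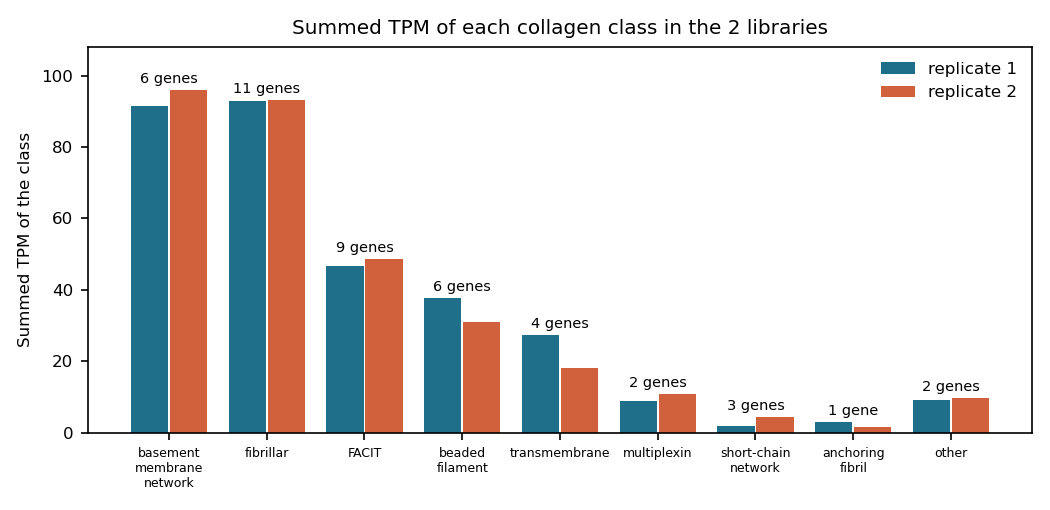
Summed TPM of each collagen class (vertical axis from 0) in replicate 1 (blue) and replicate 2 (orange), with the number of genes above each pair of bars. The type IV network and fibrillar classes each sum to 91.4 to 95.9 TPM, and the transmembrane class differs most between the libraries among the 5 highest classes, at 27.3 and 18.1.

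Among type IV genes, Col4a1 (chr8:11198423-11312826, minus strand) stood at 50.02 TPM in replicate 1 and 53.8 in replicate 2, from 4721 and 5284 counts. Col4a2 (chr8:11312805-11449287, plus strand) stood at 36.6 and 35.8 TPM, below Col4a1 in both libraries by gene TPM but not in replicate 1 when only long coding transcripts were counted (30.7 for Col4a1 and 35.6 for Col4a2). These 2 genes encode the chains of the common basement membrane trimer. The X-linked Col4a5 was at 2.53 and 2.86 TPM, Col4a6 at 0.88 and 1.05, and Col4a4 at 1.05 and 1.76. Col4a3 was the lowest, at 0.34 and 0.58. The products of Col4a3, Col4a4 and Col4a5 form the trimer of the mature kidney filtration barrier, and Col4a5 and Col4a6 that of several other tissues. All 4 lay far below the common pair, with Col4a1 19.3 ± 0.674 times Col4a5 (log2 ratio of Col4a5 over Col4a1 -4.22, or -3.59 by long coding transcripts, as defined with the ratios).

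Fibrillar genes were led by those of type I and type III collagen, the main fibres of connective tissue. Col1a1 (chr11:94936224-94953042) had 24.7 and 24.8 TPM, nearly the same in both libraries, and Col1a2 (chr6:4504814-4541544) 21.3 and 23.3. Col3a1, the chain of type III collagen in vessel walls and meninges, had 18.0 and 18.9 TPM, below both type I genes. Its expected counts are not whole numbers (1399.61 and 1697.75), so reads may have been divided with another entry. Type XI genes, whose product sits inside fibrils and sets their width, followed with Col11a2 at 9.18 and 7.58 TPM and Col11a1 at 5.83 and 4.78. The regulatory type V genes Col5a1 (4.67 and 4.93) and Col5a2 (4.10 and 3.75) were in the same range, with Col5a3 under TPM 1 (0.91 and 0.84). Col24a1 reached 2.18 and 2.49 and Col27a1 1.83 and 1.53. The cartilage collagen gene Col2a1 was near the bottom of the whole family, at 0.15 and 0.26 TPM from 12 and 9 counts.

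The FACIT class was led by 2 genes whose libraries overlapped. Col19a1 (chr1:24261890-24587472), a gene known to be active in a subset of cortical and hippocampal interneurons, stood at 13.8 and 17.8 TPM. Col9a3, which encodes a chain of the type IX collagen best known from cartilage, stood at 14.5 and 10.5. Its partners were lower, with Col9a2 at 5.32 and 4.63 TPM and Col9a1 at 0.56 and 0.85, so the 3 chains of type IX collagen were spread over a wide range of RNA levels. Col16a1 stood at 5.90 and 8.10. Col12a1, whose product binds fibrils in tendon and other dense tissue, stood at 3.67 and 3.57, and its relative Col14a1 at 0.64 and 0.75. Col22a1, known from tissue junctions such as that of muscle and tendon, had 1.22 and 1.30 TPM, and Col20a1 had 1.18 and 1.10.

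Type VI collagen forms beaded filaments near basement membranes, built from chains of Col6a1, Col6a2 and a longer partner chain. Col6a1 (chr10:76708792-76726168) was at 26.01 TPM in replicate 1 and 18.4 in replicate 2, so its place relative to Col1a1, Col1a2 and Col3a1 changed between the libraries. Col6a2 was steady at 7.20 and 7.47 TPM and Col6a3 at 2.92 and 3.24. The genes for alternatives to that longer chain were lower, with Col6a4 at 0.96 and 1.15, Col6a5 at 0.47 and 0.44 and Col6a6 at 0.23 and 0.23. Part of the reads of Col6a5 and Col6a6, neighbours on chromosome 9, were divided between entries in replicate 1, so their single values are uncertain.

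Of the transmembrane collagens, Col25a1 (chr3:130131501-130599877), a neuronal collagen whose shed form is found in amyloid plaques, was the highest, at 21.4 TPM in replicate 1 and 12.02 in replicate 2. The libraries were far apart for this gene, and the difference is described below. Col23a1 was at 5.05 and 4.85 TPM, close in both libraries. Col13a1, which acts at the junction of nerve and muscle, was at 0.71 and 1.07, and Col17a1, a part of the hemidesmosomes of skin, at 0.17 and 0.18.

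The remaining classes were smaller. The multiplexins of vascular and epithelial basement membranes were near each other, with Col15a1 at 4.60 and 5.90 TPM and Col18a1, the source of endostatin, at 4.36 and 4.88. Col8a1 (1.31 and 2.55 TPM) and Col8a2 (0.37 and 1.55) encode the short chains of the type VIII network under endothelia, and both were higher in replicate 2. Col10a1, the gene of hypertrophic cartilage, was at 0.33 and 0.28. Col7a1, which encodes the anchoring fibrils of skin, was at 2.93 and 1.63 TPM. Col26a1 was at 8.81 and 9.30 TPM and Col28a1 at 0.33 and 0.48.

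The 10 genes below TPM 1 in both libraries were Col5a3, Col9a1, Col14a1, Col4a3, Col6a5, Col28a1, Col10a1, Col6a6, Col2a1 and Col17a1. They include the cartilage collagens Col2a1, Col10a1 and Col9a1, whereas Col9a3, Col9a2 and Col11a2, also known from cartilage, were above TPM 1 in both libraries. For Col16a1, Col4a3, Col28a1, Col2a1 and Col17a1 the deposited TPM lay outside its own deposited bounds in at least 1 library, so single levels of these 5 genes are uncertain. Markers of other tissues were low in the same libraries: of 5 bone genes and 5 cartilage genes, 0 in each list reached TPM 1 in both libraries, with summed TPM of 2.13 and 1.63 for bone and 2.13 and 2.31 for cartilage. Of 5 skeletal muscle genes 2 did (sums 7.0 and 6.98). None of these markers was at 0 in both libraries.

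Ratios between chains were taken inside each library as log2 of TPM + 0.1, so that the scaling of a library cancels, for 17 pairs that join in 1 trimer, lie in 1 class or compare classes. The first gene was higher in 10 pairs and the second in 7, each in both libraries and by more than the SD. For pairs that join in the same trimer the RNAs were unequal by different degrees. Col4a6 and Col4a5, on the X chromosome, gave 2.80 ± 0.107 for Col4a5 over Col4a6, and Col4a4 exceeded Col4a3 by 3.06 ± 0.0380 times. On the log2 scale Col4a3 over Col4a4 was -1.42, and -0.58 in the second table. In that table Col4a3 stood at 0.90 times Col4a4 in replicate 1 and at 0.47 times in replicate 2. Col11a2 exceeded Col11a1 1.58 ± 0.00790 times by gene TPM, a ratio nearly the same in both libraries. Its size depended on the transcripts counted. On the log2 scale Col11a1 over Col11a2 was -0.65, against -0.46 in the second table and -1.21 with long coding transcripts, as defined below. Col6a1 exceeded Col6a2 3.61 times in replicate 1 and 2.47 times in replicate 2, and Col6a3 by 8.91 and 5.69 times. Col9a3 exceeded Col9a2 2.50 ± 0.322 times, and Col8a1 exceeded Col8a2 3.54 and 1.65 times.

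The ratios of the most abundant pairs were small and depended on the transcripts counted. Col1a1 over Col1a2, which join in unequal numbers in the type I trimer, was 1.16 and 1.07, or 0.15 ± 0.09 on the log2 scale, and the second deposited transcript table turned it to -0.25. With long coding transcripts only, as defined below, that second table gave 0.26 in replicate 1 and 0.09 in replicate 2. Col4a1 over Col4a2 was 1.37 and 1.503, or 0.52 ± 0.10. A coding fragment of 545 bases, Col4a1-203, held 23.9 ± 2.19% of the TPM of Col4a1 from 94.69 and 123.94 counts, since TPM is per length. With long coding transcripts only (at least 50% of the length of the longest coding transcript of the gene), an alternative chosen after seeing the data, Col4a1 stood at 30.7 and 36.6 TPM and Col4a2 at 35.6 and 35.3. The ratio was then -0.21 in replicate 1 and 0.05 in replicate 2 on the log2 scale, with no direction. Col18a1 over Col15a1 was -0.17 ± 0.14, and 0.49 with long coding transcripts only. Col4a1 remained above Col1a1, at 1.06 ± 0.07 by gene TPM and 0.46 ± 0.17 by long coding transcripts.

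**Figure D3:**
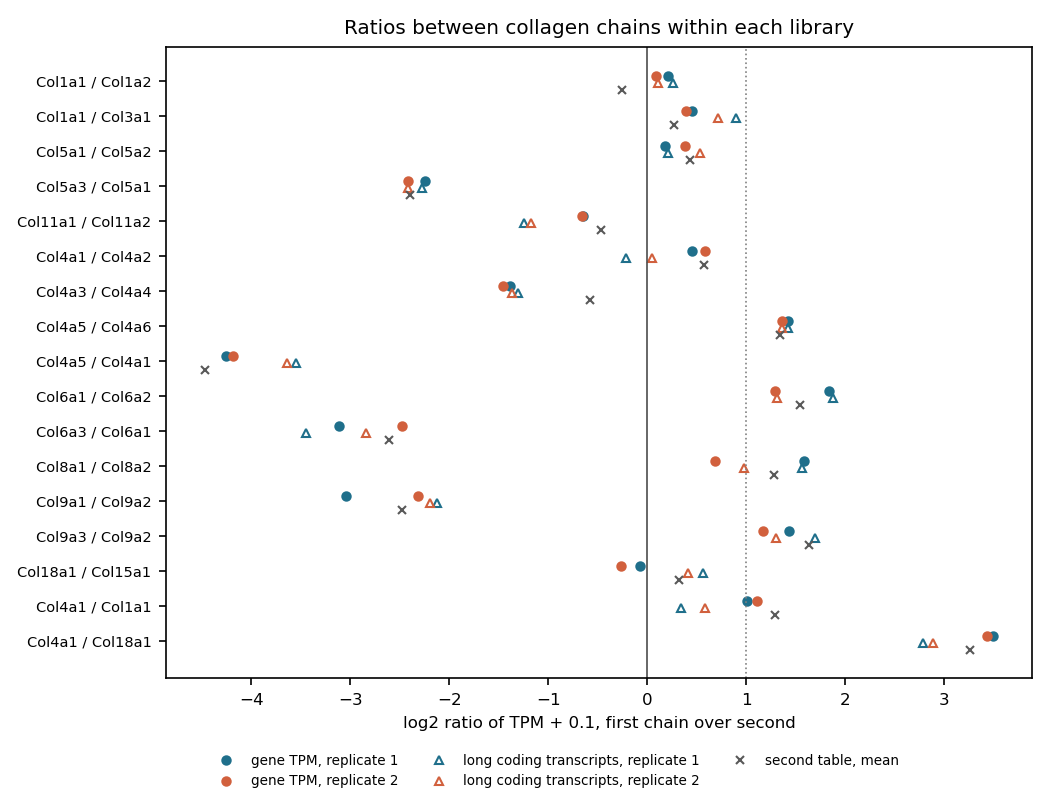
Log2 ratios of TPM + 0.1 (horizontal axis) for 17 pairs of collagen genes, by gene TPM (filled points) and long coding transcripts (open triangles) in replicate 1 (blue) and replicate 2 (orange), with the mean of the second table as crosses; the solid line marks equal levels and the dotted line a log2 ratio of 1. Points for Col1a1/Col1a2, Col4a1/Col4a2 and Col18a1/Col15a1 lie on both sides of 0.

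The annotation holds 224 transcripts of the 44 genes, of which 106 are coding and 70 are retained introns. For the 15 genes with a mean TPM of 5 or more, the highest transcript by mean share in the first table was coding in all 15, held over 50% of the TPM in both libraries for 11, and was the same in the second transcript table for 11. In the second table it was coding in 13, with Col25a1-204 and Col19a1-203 leading their genes, and Col25a1-204 also led in replicate 1 of the first table (41.8% against 41.0% for Col25a1-202). In the first table, genes of the abundant structural chains had 1 dominant coding form: Col1a1-201 held 98.3 ± 0.289%, Col4a2-201 98.002 ± 0.733%, Col1a2-201 96.0 ± 1.78%, Col6a1-201 99.6 ± 0.499% and Col6a2-201 94.1 ± 0.545%. The second table gave Col1a2-201 only 73.7 ± 3.67%, with 24.6 ± 3.45% in Col1a2-205, a coding transcript of 850 bases. It gave Col4a2-201 87.6 ± 2.53%. The shares that follow are again from the first table. Col3a1-201 held 75.3 ± 4.77% and Col4a1-201 64.7 ± 4.66%. Col15a1-202 held 60.0 ± 2.82%, Col11a1-201 55.0 ± 1.71%, Col26a1-202 52.7 ± 11.5% and Col11a2-201 52.7 ± 1.30%.

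By the mean of the libraries, 6 of these 15 genes had over 25% of their TPM in transcripts not annotated as protein-coding. Such transcripts include retained introns and targets of nonsense-mediated decay. In 3 of these genes (Col25a1, Col19a1 and Col9a3) the share was over 25% in each library. In Col25a1 the coding Col25a1-202 held 42.5 ± 2.06% and Col25a1-204, annotated as a target of nonsense-mediated decay, held 42.1 ± 0.440%, with 42.3 ± 0.514% in the second table. In Col19a1 the coding Col19a1-201 held 51.2 ± 2.35% and the non-coding Col19a1-203 40.7 ± 0.899%, with 40.6 ± 1.13% in the second table. The share of these 2 neuronal genes outside protein-coding transcripts was thus alike in both tables and both libraries. In Col9a3, retained introns held 38.0 ± 9.23%, and the tables split the coding part differently: Col9a3-201 held 62.0 ± 9.23% in the first and 0.001% in the second, where Col9a3-203 held 49.7 ± 6.75%. Shares of Col16a1 differed between the libraries, with 77.5% coding in replicate 1 and 42.7% in replicate 2, and its highest form, Col16a1-210, held 25.3 ± 9.49%. Below a TPM of 5, retained introns held 70.8 ± 7.55% of Col7a1 in the first table, and 64.6 and 42.1% in the second. When only coding transcripts were summed, an alternative chosen after seeing the data, 27 collagen genes reached TPM 1 in both libraries, with Col7a1, Col27a1 and Col4a4 lost.

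**Figure D4:**
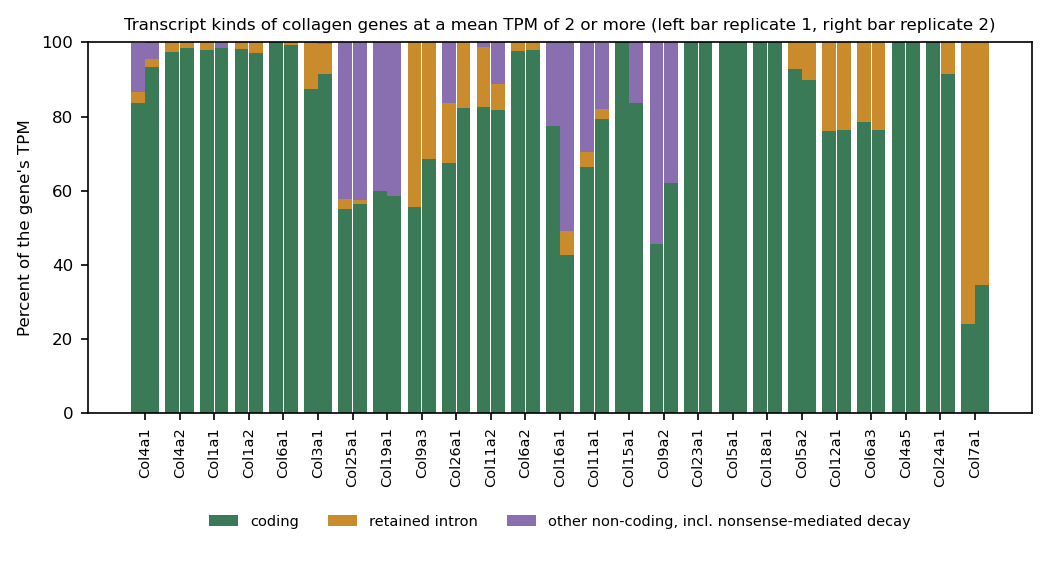
Percent of each gene's TPM (vertical axis from 0 to 100) in coding, retained-intron and other non-coding transcripts for collagen genes with a mean TPM of 2 or more and at least 2 transcripts, replicate 1 left and replicate 2 right. The other non-coding part includes targets of nonsense-mediated decay. Col25a1 and Col19a1 show large other non-coding parts that are alike in both libraries, and retained introns hold 76.1 and 65.4% of Col7a1 in this first table.

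Many of the genes that make, process and bind collagen were present beside them. The share of all protein-coding genes at TPM 1 or more in both libraries was 58.8%. The lists of collagen receptors, collagen breakdown and other collagen-domain genes, given below, were near that share. All 22 genes for chain folding and modification in the endoplasmic reticulum were at TPM 1 or above in both libraries. Mia3, a procollagen export receptor, led with 116 ± 2.43, followed by the prolyl isomerase Ppib (106 ± 2.96), P4hb, a subunit of prolyl 4-hydroxylase (60.2 ± 4.41), and the collagen galactosyltransferase Colgalt1 (27.4 ± 2.92). By counts scaled to a common library total, none of these 22 genes differed 1.5-fold between the libraries. By TPM, P3h3 differed more, at 9.68 and 14.96, against a log2 difference of 0.28 in scaled counts. Of 19 genes for propeptide cleavage, crosslinking and matrix assembly, 15 reached TPM 1 in both. The collagen-binding protein Sparc (179 ± 2.09) and fibronectin, Fn1 (45.2 ± 1.27), were the highest. They were followed by the peroxidasin gene Pxdn, which crosslinks type IV collagen (23.8 ± 1.66), and the procollagen protease gene Bmp1 (23.5 ± 4.04). The fibril-binding proteoglycan Lum was higher in replicate 2 (1.01 and 1.78 TPM, difference 0.79). The crosslinking enzymes Lox (1.16 and 1.33 TPM), Loxl1 (1.68 and 1.56) and Loxl2 (1.34 and 1.43), named after their values were seen, were little above TPM 1, while Loxl3 (0.75 and 1.5) and Loxl4 (0.07 and 0.03) were below it in at least 1 library.

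Of 12 collagen receptors, 8 reached TPM 1 in both libraries. Adgrg1, a receptor for type III collagen at the pial surface, was the highest at 61.2 and 42.5 TPM, above the integrin subunit Itgb1 (33.5 and 37.3), the collagen-binding kinase Ddr1 (22.4 ± 1.99) and the integrin subunit Itga1 (5.48 and 6.60). Itga11, a fibrillar collagen receptor subunit, was lower in replicate 2 (1.02 and 0.66, difference -0.62). Of 14 genes of collagen breakdown, 9 reached TPM 1 in both, led by the inhibitor Timp2 (142 ± 15.4), the membrane metalloprotease Mmp16 (25.3 ± 0.693), the inhibitor Timp3 (24.7 ± 1.74) and the membrane metalloprotease Mmp15 (11.7 ± 1.29). The collagenase genes Mmp1a and Mmp8 had 0 counts in both libraries, which allows up to 3 counts each. All 13 other basement membrane genes were at TPM 1 or above in both, led by Agrn (88.1 ± 2.67) and the laminin genes Lamc1 (20.2 ± 1.58), Lamb2 (18.6 ± 1.61) and Lamb1 (13.1 ± 0.509). Smoc1 was lower in replicate 2 (4.72 and 2.86, difference -0.73). Of 22 other genes with a collagen domain, 12 reached TPM 1 in both, led by C1qtnf4 (126 ± 10.2), the synaptic organiser C1ql3 (34.0 ± 5.06) and the complement genes C1qb (21.7 ± 2.35) and C1qa (21.5 ± 1.499).

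Between the libraries, 5 of the 44 collagen genes differed by 1.5-fold or more. The difference was taken as log2 CPM (counts scaled to a common library total), replicate 2 minus replicate 1, over 18965 genes with at least 10 counts in 1 library, and all 44 collagen genes were measured. Of these 23 were higher in replicate 2 and 21 lower, with a median of 0.03 against -0.0003 for all genes. The median absolute difference was 0.20 against 0.14. In replicate 2, 1 collagen gene was at least 1.5-fold lower (2.27%, against 6.61% of all genes), and 4 were at least 1.5-fold higher (9.09%, against 4.35%).

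Col25a1 was the gene lower in replicate 2, with 1902 counts in replicate 1 and 1172 in replicate 2, a difference of -0.80 or 1.74-fold. Markers of striatal neurons lay in the same direction: 6 of 6 were lower in replicate 2, with a median difference of -2.44 and summed TPM of 412 and 89.1, and none was at 0. Their part in the value of Col25a1 was not tested. Col6a1, at 1976 and 1487 counts, was lower by -0.51, short of 1.5-fold.

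Col8a2, at 30 and 101 counts, was higher in replicate 2 by 1.59, or 3.01-fold. Col8a1, at 124 and 251 counts, was higher by 0.91, or 1.88-fold. Col4a4 (189 and 324 counts, 0.67) and Col4a3 (54 and 95 counts, 0.70), the head-to-head pair of chromosome 1, were also higher in replicate 2. Choroid plexus markers were uneven in the same direction, with summed TPM of 33.5 in replicate 1 and 124 in replicate 2, mostly from Ttr (30.4 and 118). Of its 6 markers 2 reached TPM 1 in both libraries, and Clic6 differed the other way at -1.17. Their part in the values of Col8a1, Col8a2, Col4a3 and Col4a4 was not tested.

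Markers of fibroblasts, endothelial cells and mural cells, which make vessel and meningeal collagen, were higher in replicate 2 for 6 of 8, 5 of 6 and 7 of 8 genes, with median differences of 0.11, 0.14 and 0.17. Among them Lum was past 1.5-fold (0.79) and Ogn was at 0.55. The 8 fibroblast markers summed to 166 and 170 TPM, the 6 endothelial markers to 88.5 and 91.9 and the 8 mural markers to 123 and 135, and each of these 22 markers but none of the bone or cartilage markers reached TPM 1 in both libraries. Most of the fibroblast sum came from Igf2 (92.1 and 99.2 TPM) and Pdgfra (32.15 and 25.93). The 2 fibroblast markers lower in replicate 2 were Pdgfra (-0.22) and Fbln1 (-0.17). Whether the whole sum comes from fibroblasts was not tested. Col1a1, Col1a2, Col3a1, Col4a1 and Col4a2 differed by less than 1.5-fold. By the deposited bounds, 6 collagen genes had TPM intervals apart between the libraries, namely Col19a1, Col25a1, Col4a4, Col6a1, Col8a1 and Col8a2. Col7a1 differed from 2.93 to 1.63 in TPM but by -0.24 in counts, and the deposited effective length of the gene, by which TPM divides, was 2552 bases in replicate 1 and 3875 in replicate 2.

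**Figure D5:**
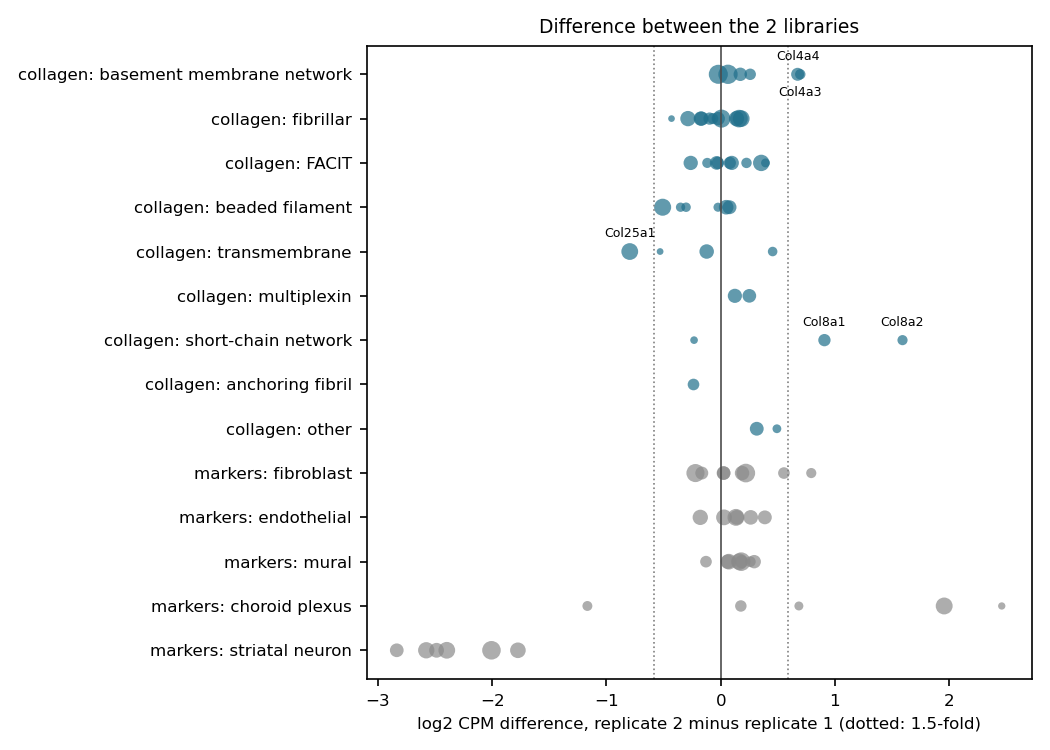
Log2 CPM difference, replicate 2 minus replicate 1 (horizontal axis), for collagen genes by class (blue) and for markers of other cells (grey); each point is a gene, its area grows with the mean count, and dotted lines mark 1.5-fold. Col25a1 lies left of the lines, Col8a1, Col8a2, Col4a3 and Col4a4 lie right of them, and all 6 striatal markers lie left.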

How the data were processed

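Total RNA of the left cerebral cortex was measured in 2 libraries. Per the file headers and description files, the deposited expected counts, TPM and FPKM of genes and of transcripts come from alignments to the transcriptome (mm10, GENCODE M21), and the deposited percent column gives the part of a gene's abundance in each transcript. The deposited expected counts are estimated reads and are not normalized. The deposited TPM values sum to a fixed total over the file's entries, in which spike-ins count too. The deposited FPKM values are per length and assigned reads. A second transcript table with deposited estimated counts and TPM was derived from the reads directly. Column names are those that RSEM and kallisto write; which tools, versions and strand settings were used is not given in the sources used here, and reads of overlapping or antisense genes may be mixed.

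From these files, TPM was averaged over the libraries, summed by class and set in ratio (pseudocount 0.1). Counts, rounded to whole numbers, gave log2 CPM differences with TMM scaling and a prior of 2 counts (edgeR 4.0.16, R 4.3.3), with DESeq2 1.42.0 size factors as an alternative. Python 3.11.15, pandas 2.3.3, numpy 2.4.6, scipy 1.17.1 and matplotlib 3.10.9 were used. The difference step was tested on simulated counts, where known log2 changes of 0, 1 and 2 gave median estimates of -0.005, 0.937 and 2.016. Its tolerance was widened after a first run had missed it. Only genes with a mean of 100 or more counts were changed, so Col8a2 and Col4a3 lie below the range tested. No p-value was computed, since each side of the difference is 1 library.

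The rule for named genes gives both libraries' values for every collagen gene with a mean TPM of 1 or more, and here for all others too. Differences are named past 1.5-fold with a mean of at least 50 counts, as are partner genes beside the 4 highest of each list, and the highest transcript is named for genes with a mean TPM of 5 or more. The members, classes, pairs and 14 lists were chosen with earlier results of these data known. Promoter windows came from RefSeq (GRCm38.p6). Protein sequences were not used here.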

Additional observations from a re-analysis of the deposited data

How the results depend on the processing

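The count of 30 of 44 collagen genes at TPM 1 in both libraries ranged from 24 to 36 under the alternatives. It was 24 at TPM 2 or more, 26 as FPKM and 27 with coding transcripts only. It was 36 at TPM 0.5 or more, in the second transcript table and when rescaled over nuclear protein-coding genes. Absolute sums moved too: the summed TPM of 316 became 493 in the second transcript table, 678 when rescaled in that way and 209 as FPKM. Counts not divided by length gave shares of 32.7% for fibrillar and 34.4% for type IV genes, which no longer overlapped between the libraries, of 10.6% for FACIT genes (15.1% by TPM) and of 1.40% for the class called other (2.99%). The median library difference was 0.077 on the scale of log2 TPM + 0.1. The 1 gene lower in replicate 2 became 2 with a prior count of 0.5 (adding Col17a1), 3 in the second table (adding Col10a1 and Col17a1) and 2 by TPM (adding Col7a1), and Col25a1 was among them each time. The 4 genes higher became 2 at a mean of 100 or more counts, since Col4a3 and Col8a2 were not measured there, and in the second table Col4a3 was at 0.49. A pseudocount of 1 or leaving out a library could not reverse a chain ratio, since each direction was already shared by both libraries. Counted together with these, 112 of 119 chain ratios under alternatives kept their direction. Those reversed were Col1a1/Col1a2 in the second table (-0.25), Col4a1/Col4a2 with long coding transcripts or the longest alone (both -0.081), Col18a1/Col15a1 in the second table (0.32), by counts (0.34) and with long coding transcripts (0.49), and Col9a3/Col9a2 with the longest coding transcript (-4.77). Both transcript alternatives were chosen after seeing the data. The longest transcript alone was tried first, and the long-transcript form was added because Col9a3-203, the longest of Col9a3, is at 0 in the first table. Where no construction is named, the cause was not tested. Leaving out a library was possible for levels, shares and ratios, but not for library differences, which then have no second side. No paired analysis was possible because the replicates form 1 group.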
